A study of Rattus norvegicus with 17 samples.

Results

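Vegfa and 4 genes of the vessel wall, Flt1, Kdr, Tek and Vwf, were examined in RNA sequencing libraries of left hippocampal tissue (CA1/CA2) from 17 rats. The genes were chosen by identifier, not by their values: Vegfa is ENSRNOG00000019598, Flt1 is ENSRNOG00000000940, Kdr is ENSRNOG00000046829, Tek is ENSRNOG00000008587 and Vwf is ENSRNOG00000019689. All 5 were found among the 26402 genes listed, of which 20910 had a read in at least 1 rat, and all 5 passed the filter on low values. The animals were male Fisher-344 rats aged 12 months, all trained in the Morris maze, and each gave 1 library. Daily subcutaneous injections on 3 days carried either enzastaurin (ENZ), an inhibitor of protein kinase C, at 25 mg/kg (7 rats) or the polyethylene glycol vehicle alone (10 rats). Rats are named by their labels, with G1 for vehicle and G2 for ENZ before the animal's number. The question was whether ENZ altered the level of these genes, and whether the genes varied together from rat to rat.

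Vegfa encodes vascular endothelial growth factor A, a secreted ligand that neurons and glia release and that hypoxia induces. Its main signalling receptor on endothelial cells is encoded by Kdr, while the receptor encoded by Flt1 binds the ligand tightly and, in its soluble form, keeps it from Kdr. Tek encodes Tie2, the endothelial receptor for the angiopoietins, which steadies mature vessels, and Vwf encodes von Willebrand factor, a clotting protein that endothelial cells store. Protein kinase C acts downstream of Kdr, and ENZ was developed in part as an inhibitor of vessel growth.

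One vehicle library, from rat G1_80, held 33422 reads on genes, while the other 16 held 2716777 to 20731523, with a median of 7198892. Each read in that library equalled 103.4 normalized counts, so its values for these genes rested on 1 to 9 reads, and it was left out of the main comparisons (9 vehicle and 7 ENZ rats remained) and is given beside them. The difference in mean log10 reads, ENZ minus vehicle, was -0.13, within the spread between rats (two-sided exact permutation test over 11440 splits, p = 0.284). The tissue was bulk, so fewer endothelial cells and less RNA per cell cannot be told apart. Apart from these members, markers of endothelium, other cell types and the wider VEGF and angiopoietin pathway were not analysed here.

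The promoters of the ligand and of its receptors are shown because these genes are compared below across animals. They are the 250 bases before the first start listed by RefSeq (assembly GRCr8, plus strand): chr9:22452604-22452853 for Vegfa, chr12:12333180-12333429 for Flt1 and chr14:32571813-32572062 for Kdr. Capitals mark GGAA, the core bound by ETS factors, which control many endothelial genes, or its reverse complement TTCC.
Vegfa: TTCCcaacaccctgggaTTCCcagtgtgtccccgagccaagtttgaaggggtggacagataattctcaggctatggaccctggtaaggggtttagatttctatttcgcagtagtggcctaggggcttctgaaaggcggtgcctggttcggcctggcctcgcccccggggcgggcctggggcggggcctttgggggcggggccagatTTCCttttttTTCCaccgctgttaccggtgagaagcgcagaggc
Flt1: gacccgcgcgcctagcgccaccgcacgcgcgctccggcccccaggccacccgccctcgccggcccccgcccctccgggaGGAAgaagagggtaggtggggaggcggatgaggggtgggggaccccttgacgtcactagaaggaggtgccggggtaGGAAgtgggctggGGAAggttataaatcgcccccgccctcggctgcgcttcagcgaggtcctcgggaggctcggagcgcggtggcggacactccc
Kdr: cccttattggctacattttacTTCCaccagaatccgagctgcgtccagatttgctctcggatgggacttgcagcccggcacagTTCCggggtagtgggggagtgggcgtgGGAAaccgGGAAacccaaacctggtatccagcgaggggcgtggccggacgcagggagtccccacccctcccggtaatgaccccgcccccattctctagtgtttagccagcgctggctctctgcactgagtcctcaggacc
The GGAA core stood on either strand 4 times in the Vegfa window, 3 times in that of Flt1 and 4 times in that of Kdr. Such a core is common: 93.2% of 33469 promoter windows of the same length held at least 1, with a median of 3. The ACGTG form of the hypoxia response core was searched on both strands. It had no match in these 3 windows, against a match in 16.6% of all windows. The GCGTG form of that core was not counted over all windows. It can be read in the Kdr window and, as its reverse complement CACGC, in the Flt1 window. The absence of ACGTG therefore does not mean that these windows lack such a core. The GC content was 60.4% for Vegfa, 73.2% for Flt1 and 61.6% for Kdr. The files' own build was rn5, so these positions belong to GRCr8 alone. Tek and Vwf are named only.

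No difference between ENZ and vehicle passed the test for any of the 5 genes. Expressed as ENZ relative to vehicle on the scale of normalized count + 1, the fitted folds were 1.04 for Vegfa, 0.972 for Flt1, 1.05 for Kdr, 1.05 for Tek and 1.16 for Vwf. Among 13853 genes tested with limma, 0 (0%) had an adjusted p under 0.05 and 324 (2.34%) had an unadjusted p under 0.05. Of the 5 members, 0 reached an unadjusted p under 0.05 with limma, DESeq2 or edgeR, and each limma adjusted p was 0.9998. In simulated counts with the same 16 rats, limma recovered 69% of 200 genes changed 1.6-fold. Those genes were picked at random and simulated without variation shared between genes. The share is an average and does not give the recovery for any of the 5 members.

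**Figure D1:**
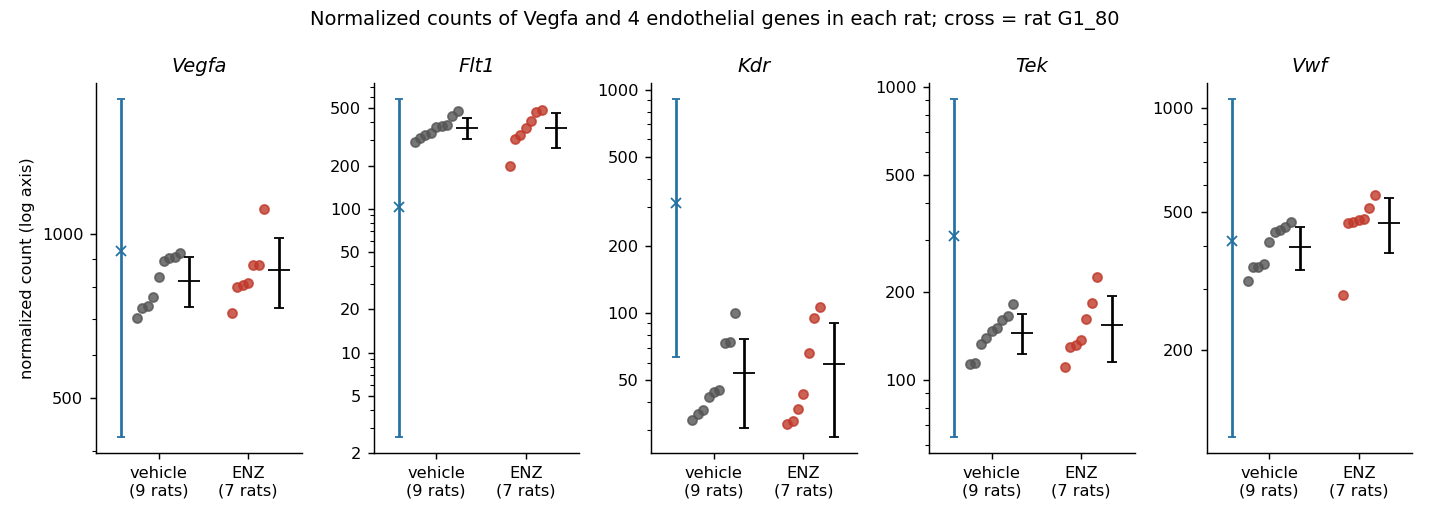
Normalized counts (log axis) of Vegfa, Flt1, Kdr, Tek and Vwf in each rat, with grey points for 9 vehicle and red points for 7 ENZ rats, and black bars for mean and SD. The blue cross is vehicle rat G1_80 with its 95% Poisson interval, and in every panel the points of both groups overlap.

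The ligand was the steadiest of the 5. Vegfa ran from 701.5 to 923.1 normalized counts in the 9 vehicle rats, with a median of 833.9 and a mean of 821.8 ± 88.0 (SD, n = 9). In the 7 ENZ rats it ran from 715.8 to 1113, with a median of 814.1 and a mean of 857.8 ± 124.9 (SD, n = 7). One ENZ rat, G2_152, lay above every vehicle rat, and the others fell inside the vehicle range. The log2 difference, ENZ minus vehicle, was 0.06 ± 0.08 (SE), with a 95% interval from -0.11 to 0.23 (two-sided exact permutation test, p = 0.536). In folds that interval ran from 0.924 to 1.17. In G1_80, 9 reads gave 930.2 normalized counts, with an upper 95% Poisson bound of 1766, and with this rat included the difference was 0.04 (exact permutation p = 0.664).

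The decoy receptor gene Flt1 had almost the same mean in both groups. It ran from 291.4 to 475.2 normalized counts in vehicle rats, with a median of 368.9 and a mean of 367.6 ± 60.1 (SD, n = 9). In ENZ rats it ran from 198.8 to 482.6, with a median of 367.2 and a mean of 366.2 ± 99.4 (SD, n = 7). The ENZ group thus held both the lowest rat, G2_125, and the highest, G2_152. The log2 difference was -0.04 ± 0.15 (SE), with a 95% interval from -0.35 to 0.27 (two-sided exact permutation test, p = 0.823). Rat G1_80 had 1 read of Flt1, equal to 103.4 normalized counts (95% Poisson interval 2.62 to 575.9), and with it the difference changed sign to 0.14 (exact permutation p = 0.672). Without rat G2_125 it was 0.10.

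Kdr, the signalling receptor gene, had the fewest reads and the widest spread. It ran from 33.2 to 99.9 normalized counts in vehicle rats, with a median of 44.5 and a mean of 53.8 ± 23.2 (SD, n = 9). In ENZ rats it ran from 31.8 to 106.9, with a median of 43.4 and a mean of 59.2 ± 31.1 (SD, n = 7). Both groups held low and high rats, and the ENZ range enclosed the vehicle range. The log2 difference was 0.08 ± 0.28 (SE), with a 95% interval from -0.51 to 0.66 (two-sided exact permutation test, p = 0.818). In folds the interval ran from 0.703 to 1.58, the widest of the 5 genes. The 3 reads in G1_80 made 310.1 normalized counts (95% Poisson interval 63.9 to 906.2), and with that rat the difference turned to -0.18 (exact permutation p = 0.702).

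Tek, the angiopoietin receptor gene, overlapped between groups as well. It ran from 113.4 to 181.8 normalized counts in vehicle rats, with a median of 146.2 and a mean of 144.7 ± 22.8 (SD, n = 9). In ENZ rats it ran from 110.2 to 224.3, with a median of 137.1 and a mean of 153.8 ± 39.1 (SD, n = 7). The ENZ rats G2_161 and G2_152 stood above the vehicle range and G2_125 below it. The log2 difference was 0.07 ± 0.13 (SE), with a 95% interval from -0.21 to 0.34 (two-sided exact permutation test, p = 0.652). With G1_80, whose 3 reads again made 310.1 normalized counts, it was -0.04 (exact permutation p = 0.827).

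Vwf showed the largest fitted difference of the 5, although it did not pass the test. It ran from 315.9 to 467.9 normalized counts in vehicle rats, with a median of 410.7 and a mean of 397.9 ± 56.9 (SD, n = 9). In ENZ rats it ran from 289.4 to 562.1, with a median of 476.3 and a mean of 465 ± 84.7 (SD, n = 7). Of the 7 ENZ rats, 5 lay above all 9 vehicle rats, while G2_125 was the lowest of all. The log2 difference was 0.21 ± 0.12 (SE), with a 95% interval from -0.03 to 0.45 and an unadjusted limma p of 0.0808, which ranked 607 among the genes tested (two-sided exact permutation test, p = 0.119). Without G2_125 it was 0.32 (limma, unadjusted p = 0.00151, rank 4, adjusted p = 0.9995). That was the highest of the 16 fits with 1 rat left out, and it drops the ENZ rat with the lowest Vwf. The lowest of those fits, without G2_152, gave a difference of 0.16 (limma, unadjusted p = 0.182, rank 2195, adjusted p = 0.9976). With G1_80, in which 4 reads made 413.4 normalized counts, it was 0.21 (exact permutation p = 0.109).

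**Figure D2:**
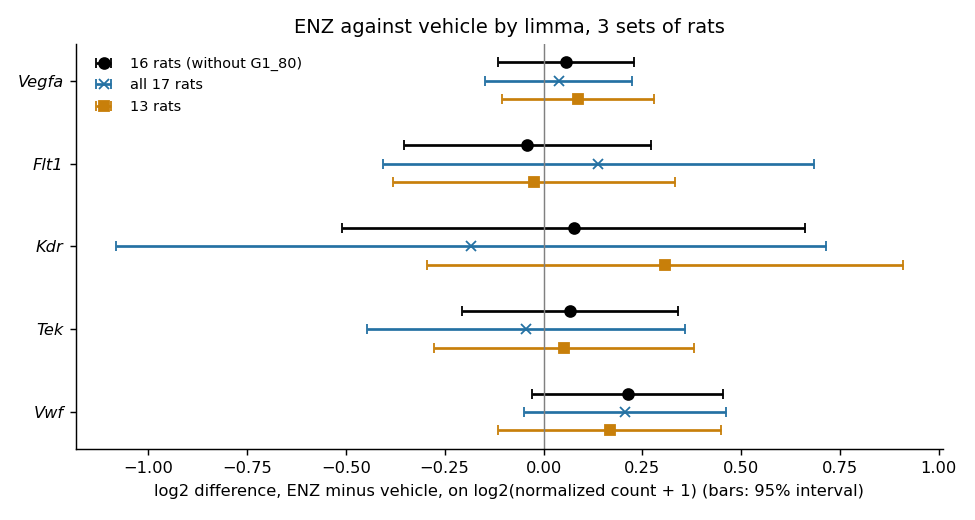
Log2 difference between ENZ and vehicle for each gene, fitted by limma on log2(normalized count + 1), with 95% intervals, for 16 rats, all 17 rats and a set of 13 rats. All 15 intervals include 0, and with all 17 rats the values for Flt1, Kdr and Tek lie on the other side of 0 from those of the 16 rats.

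A smaller set of 13 rats (6 vehicle, 7 ENZ), which also lacks G1_134, G1_44 and G1_8, gave the same overlap. There the log2 difference was 0.09 for Vegfa, -0.02 for Flt1, 0.31 for Kdr, 0.05 for Tek and 0.17 for Vwf, with two-sided exact permutation p values of 0.427, 0.913, 0.379, 0.773 and 0.281. Kdr moved most between the sets. Leaving out from the 16 only G1_44, the vehicle rat with the most Kdr at 99.9 normalized counts, put its difference at 0.20. Hba2, a haemoglobin gene that marks blood left in the tissue, averaged 405 ± 165 normalized counts in vehicle (SD, n = 9) and 297.3 ± 45.1 in ENZ (SD, n = 7), with overlap (two-sided exact permutation p = 0.107). Over the 13 rats the Hba2 difference was -0.33 on the log2 scale (exact permutation p = 0.0134, not adjusted). The study listed Hba2 among its genes of smallest uncorrected p, and the 13 rats were found by matching mean counts of that list. That p is therefore not independent evidence of a difference. In the study's list the log2 fold change of Hba2 has nearly the same size and the opposite sign. That list does not state which group was subtracted from which. Its sign therefore does not show that the study found Hba2 higher in ENZ. The part of Hba2 in the members' values was not tested beyond the correlations given below.

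The 5 genes differed in how widely they varied from rat to rat. Over the 16 rats the coefficient of variation was 12.4% for Vegfa, 20.9% for Flt1, 46.5% for Kdr, 20.3% for Tek and 17.8% for Vwf. The coefficient that counting error alone would give was 3.17%, 4.85%, 13.1%, 7.59% and 4.47% in the same order, so it was greatest for Kdr, the gene with the fewest reads. The median over all genes tested was 13.8%. Vegfa lay below that median, and the 4 vessel wall genes lay above it. For Kdr, 4.27% of all genes varied at least as much.

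The same 2 ENZ rats stood at the ends. G2_152 had the highest value of the 16 rats for each of the 5 genes, and it was the highest rat for 9.91% of all genes tested. G2_125 was lowest for Flt1, Tek and Vwf and next to lowest for Vegfa and Kdr, and it was the lowest rat for 13.5% of all genes tested. Rat G2_152 was also the lowest rat for 9.69% of all genes and G2_125 the highest for 13.9%, so neither library was shifted in 1 direction alone. Both rats received ENZ, and over the 16 rats the SD was higher in ENZ than in vehicle for all 5 genes. That difference was not tested or compared with other genes, and the 5 genes share these rats. With G1_80 included, the SD was higher in vehicle for Flt1 (101 against 99.4), Kdr (83.92 against 31.14) and Tek (56.53 against 39.1). For Vegfa and Vwf it was still higher in ENZ.

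**Figure D3:**
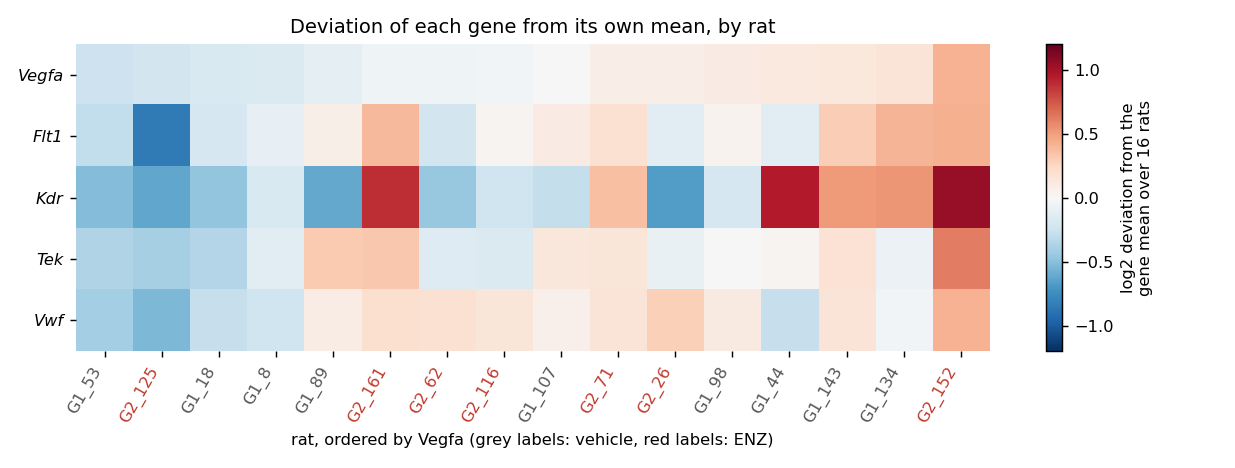
Deviation of each gene from its own mean over 16 rats, on the log2 scale of normalized count + 1 (colour), for rats ordered by Vegfa, with grey labels for vehicle and red labels for ENZ. G2_152 is above the mean for all 5 genes and G2_125 below it for all 5.

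The 5 genes varied together across the 16 rats in all pairs but Kdr with Vwf. Pearson's r was calculated on log2(normalized count + 1), with 100000 permutations and adjustment over the 10 pairs of members. Of these pairs, 9 passed by r and 8 by Spearman's rho. As background, 7.98% of other genes tested had an r of at least 0.5 with Vegfa. The share was 8.8% for Flt1, 7.59% for Kdr, 7.68% for Tek and 7.22% for Vwf. The permutations do not allow for variation that many genes of a library share. For the ligand Vegfa with its signalling receptor Kdr, r was 0.69 (permutation p = 0.0026, adjusted 0.00437) and rho was 0.64 (p = 0.00885, adjusted 0.0221). For Vegfa with the decoy receptor gene Flt1, r was 0.67 (permutation p = 0.00587, adjusted 0.00734) and rho 0.67 (p = 0.00567, adjusted 0.0189). Outside its own receptors, Vegfa varied with the other vessel wall genes to a similar degree. For Vegfa with Tek, r was 0.70 (permutation p = 0.00248, adjusted 0.00437) and rho 0.59 (p = 0.0186, adjusted 0.0266). For Vegfa with Vwf, r was 0.69 (permutation p = 0.00262, adjusted 0.00437), while rho was 0.50 and missed the threshold (p = 0.0510, adjusted 0.0567).

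Among the vessel wall genes themselves, the angiopoietin receptor and the decoy receptor had the highest value by both measures. For Flt1 with Tek, r was 0.77 (permutation p = 0.00053, adjusted 0.00437) and rho 0.83 (p = 0.00013, adjusted 0.0013). For the receptor pair Flt1 and Kdr, r was 0.67 (permutation p = 0.0033, adjusted 0.00471) and rho 0.68 (p = 0.00532, adjusted 0.0189). For Kdr with Tek, r was 0.65 (permutation p = 0.00694, adjusted 0.00771) and rho 0.61 (p = 0.0144, adjusted 0.0266). The clotting protein gene Vwf passed with Flt1 and Tek. For Flt1 with Vwf, r was 0.73 (permutation p = 0.00122, adjusted 0.00437) and rho 0.56 (p = 0.0259, adjusted 0.0324). For Tek with Vwf, r was 0.72 (permutation p = 0.00147, adjusted 0.00437) and rho 0.59 (p = 0.0178, adjusted 0.0266). For Kdr with Vwf, r was 0.32 (permutation p = 0.229, adjusted 0.229) and rho 0.27 (p = 0.322, adjusted 0.322). Whether this r differed from those of the other pairs was not tested, and over the 13 rats it was 0.54 (adjusted permutation p = 0.0475).

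These calls rest on the 2 extreme ENZ rats. Without both G2_125 and G2_152, a choice made after the values were seen, 0 of the 10 pairs passed (permutation test, adjusted p from 0.06 to 0.976). For the 9 pairs that had passed, r then ran from 0.42 for Vegfa with Tek to 0.70 for Flt1 with Tek, and for Kdr with Vwf it was 0.01. Leaving out instead the 2 rats farthest from the median of the first gene named, r for those 9 pairs ran from 0.42 for Vegfa with Tek to 0.70 for Flt1 with Tek. With only G2_152 left out, 7 pairs passed, as Vegfa with Tek (r = 0.52) and Kdr with Tek (r = 0.52) fell below the threshold (permutation test, adjusted p = 0.0564 for each). With G1_80 included, 4 pairs passed. There r turned to -0.24 for Flt1 with Tek and to -0.32 for Flt1 with Kdr, since G1_80 had 1 read of Flt1 and 3 reads each of Tek and Kdr.

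**Figure D4:**
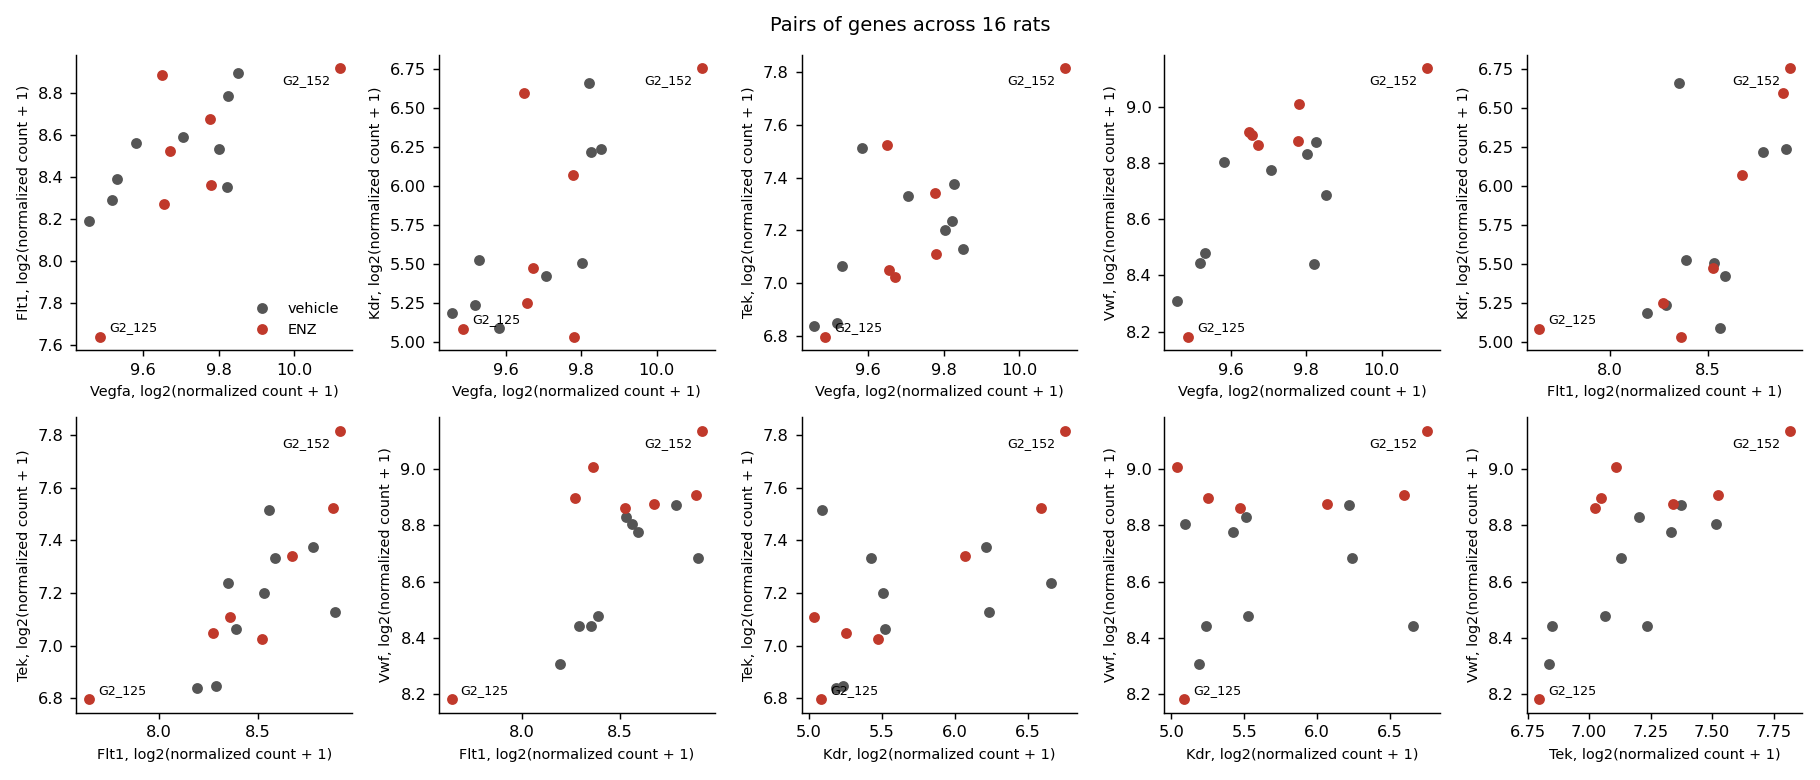
Log2(normalized count + 1) of each of the 10 pairs among Vegfa, Flt1, Kdr, Tek and Vwf in 16 rats, with grey points for vehicle, red points for ENZ and 1 point per rat. In each panel G2_152 lies at the upper right and G2_125 near the lower left, and r over all points runs from 0.32 for Kdr with Vwf to 0.77 for Flt1 with Tek.

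The co-variation was of similar size once the difference between group means was taken out, a step that keeps both extreme rats. Within single groups r varied more from pair to pair. With group means removed, 9 of the 10 pairs passed again, and r was 0.69 for Vegfa with Kdr, 0.69 for Vegfa with Flt1, 0.70 for Vegfa with Tek, 0.69 for Vegfa with Vwf and 0.79 for Flt1 with Tek. Within the 9 vehicle rats, which hold neither extreme rat, r ran from 0.07 for Kdr with Vwf to 0.80 for Tek with Vwf. After adjustment over 20 tests, 3 vehicle pairs passed: Vegfa with Kdr (r = 0.79), Flt1 with Vwf (r = 0.79) and Tek with Vwf (r = 0.80), each with an adjusted exact permutation p of 0.0467. Within the 7 ENZ rats, r ran from 0.49 for Kdr with Vwf to 0.93 for Kdr with Tek. There the 3 receptor pairs passed, Kdr with Tek (r = 0.93), Flt1 with Tek (r = 0.88) and Flt1 with Kdr (r = 0.83), each with the same adjusted exact permutation p of 0.0467. By rho, 0 of these 20 tests passed (smallest adjusted exact permutation p = 0.102). For Kdr with Tek, r in vehicle was 0.22, and whether r differed between the groups was not tested.

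Some of the genes also followed broader variation among the libraries. On the second principal component over all genes tested, which held 15.2% of the variance, G2_125 lay lowest at -33.95 and G2_152 highest at 25.1. Adjusted over 25 relations, 3 of the 5 genes were correlated with it by r, namely Flt1 (r = 0.81, permutation test, adjusted p = 0.007), Vwf (r = 0.70, adjusted p = 0.0325) and Vegfa (r = 0.67, adjusted p = 0.0423). For Tek r was 0.57 (permutation test, adjusted p = 0.121) and for Kdr 0.39 (adjusted p = 0.5405). By rho 0 of the 5 passed (adjusted permutation p from 0.0673 to 0.499). Without the 2 rats farthest along the component, r was 0.57 for Flt1, 0.42 for Vegfa, 0.41 for Vwf, 0.18 for Tek and 0.06 for Kdr. On the first component, which held 20% of the variance, r for Kdr was 0.56 (permutation test, adjusted p = 0.121). Against log10 reads, r ran from -0.34 to -0.15, and against Hba2 from -0.16 to 0.28, none past the threshold (permutation test, adjusted p of 0.5405 or higher). What the components stand for was not tested.

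With 3 principal components removed from the 16 rats, an alternative chosen after the values were seen, 5 of the 10 pairs passed: Flt1 with Kdr (r = 0.72), Kdr with Tek (r = 0.70), Flt1 with Tek (r = 0.63), Vegfa with Vwf (r = 0.63) and Tek with Vwf (r = 0.56). The permutation test did not allow for the 3 components removed, so its p-values came out too small. The count of 5 may thus be too high. For Vegfa with its receptors, r with the components removed was 0.49 for Kdr and 0.20 for Flt1. In the ENZ comparison with those components as covariates, the log2 difference was 0.26 for Vwf (limma, unadjusted p = 5.86e-04, rank 2) and 0.12 for Vegfa (unadjusted p = 0.0270), each with an adjusted p of 0.9997.

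Across the transcriptome of the 16 rats, few genes followed Vegfa as closely as the other members did. Of 13852 other genes, 0.96% had an r with Vegfa at least as high as that of Tek, 1.09% as that of Kdr, 1.12% as that of Vwf and 1.52% as that of Flt1. In order of r, Tek ranked 133, Kdr 151, Vwf 155 and Flt1 211. The median r with Vegfa was 0.03, and 7.98% of genes had an r of at least 0.5. The nearest genes were ENSRNOG00000003399 (r = 0.88) and ENSRNOG00000006559 (r = 0.85), which the table does not pair with a symbol. They are a description of these 16 rats only: over the 13 rats they ranked 6 and 14. The members' shares also depended on the setting. Without G2_125 and G2_152, r with Vegfa ran from 0.42 for Tek to 0.54 for Kdr, and ranks were not calculated. With 3 principal components removed, the share of genes at or above Flt1 was 28.1%, against 6.66% for Tek, 6.55% for Kdr and 1.89% for Vwf.

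Kdr, the gene with the widest spread, was followed rat by rat. In order of level, 10 rats lay at 31.8 to 45.1 normalized counts and 6 rats at 66.2 to 106.9. The 3 vehicle rats among the 6 were G1_134 at 74.3, G1_143 at 73.4 and G1_44 at 99.9 normalized counts. The 3 ENZ rats among them were G2_71 at 66.2, G2_161 at 95.5 and G2_152 at 106.9. Both treatments were thus found at both ends. The step between them was 0.54 on the log2 scale, no wider than the widest step in Flt1 (0.55), and the rats are not treated here as separate sets. Some 95% Poisson intervals overlap across it. G1_134 with 38 reads had an interval from 52.6 to 102 and G1_107, also with 38 reads, one from 29.7 to 57.6. The rats next to the step on either side did not overlap, with 38.66 to 52.25 in G1_8 and 55.79 to 77.98 in G2_71.

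**Figure D5:**
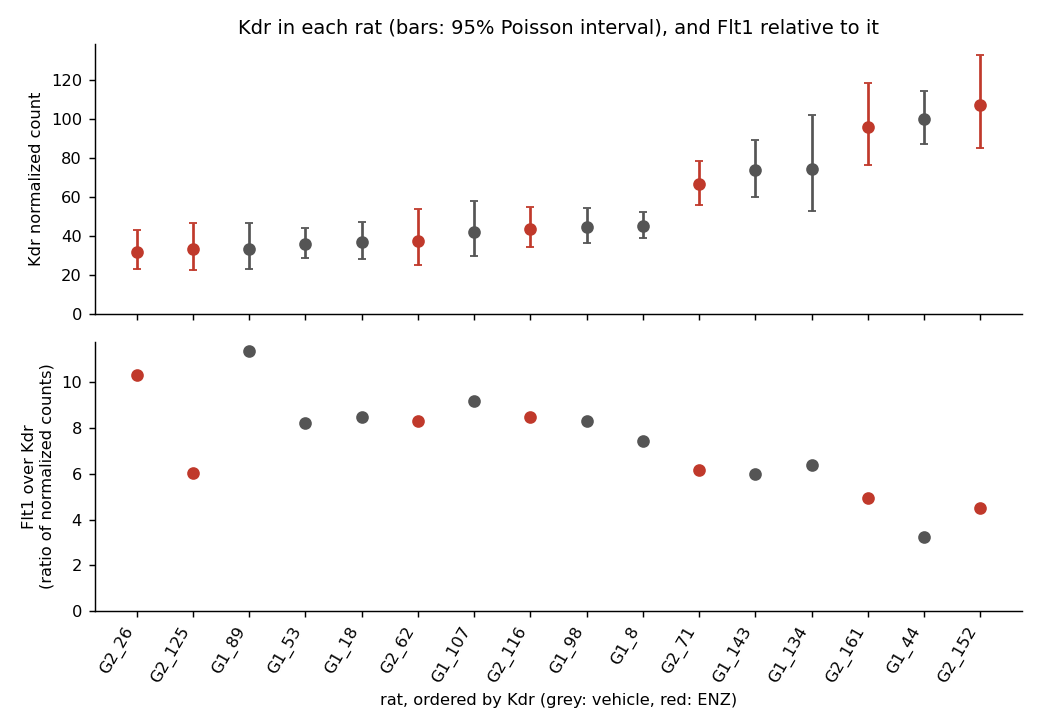
Kdr normalized count with its 95% Poisson interval (upper panel) and the ratio of Flt1 to Kdr normalized counts (lower panel) in 16 rats ordered by Kdr, with grey for vehicle and red for ENZ. Above 10 rats at 31.8 to 45.1 stand 6 rats at 66.2 to 106.9, and the ratio runs from 3.26 in G1_44 to 11.4 in G1_89.

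Relative to Kdr within the same rat, Flt1 stood at 3.26 in G1_44 and at 11.4 in G1_89, both of them vehicle rats. That ratio compares rats, not the level of one gene with the other, since gene lengths were not used.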

How the data were processed

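RNA was sequenced from the left CA1/CA2 region of 17 rats. The authors trimmed adapters with AlienTrimmer, aligned reads to rn5 with STAR 2.4.0a and counted them per gene with featureCounts 1.4.4. The deposited values are a normalized signal, read counts that the authors scaled with a size factor for each rat. Strand setting and annotation release are not given in the sources used here. A further ENZ rat in the study's methods has no label and is not analysed here. Since low values were whole multiples of 1 step, reads were recovered; 100% of values came out whole within 0.05 of a read. The step of rat G1_89 was so close to 1 normalized count that the separate test of this recovery could not be applied to its column. Total reads ran from 33422 to 20731523 per rat. Poisson intervals are exact and cover counting error only. The closest pair of libraries, G1_134 and G2_161, still differed (chi-square over degrees of freedom, 1.79), so all were kept as separate samples.

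ENZ and vehicle were compared by limma 3.58.1 (R 4.3.3) with the prior variance following mean level. Values were log2(normalized count + 1), genes needed a median normalized count of 5 or more, and p-values had Benjamini-Hochberg adjustment over all genes tested. The fold changes are on this scale and understate the change of low genes. Exact permutation tests of single genes and permutation tests of correlations were two-sided and run in Python 3.11.15 (scipy 1.17.1, numpy 2.4.6). Each rat is 1 animal, and the groups share no animal numbers. DESeq2 1.42.0 and edgeR 4.0.16 on recovered reads, other pseudocounts, filters and scalings, other sets of rats and each rat left out were alternatives. The fits were tested on simulated data. The set of 13 rats, found by matching published mean counts, differed from these by at most 3.91e-08%, against 1.09% for the next of 2517 sets, all without G1_80.

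The members and lists were chosen with earlier results of these data known. The genes named were the 5 members, Hba2 and the 2 genes most like Vegfa. The names come with the choice of members, as 0 identifiers in the table matched the RefSeq gene table, and lists of cell type markers and pathways were therefore not analysed here. Promoter sequences are from RefSeq (GRCr8), in which 3 of 5 members matched.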

Additional observations from a re-analysis of the deposited data

Results flagged for a closer look

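Among 15 groups of values checked for a rat standing apart from the others of its group, 4 held one. The genes varied together, and the few reads of G1_80 were known beforehand. No number expected by chance is therefore set beside this count. In 3 of them it was vehicle rat G1_80, the library of 33422 reads. On the scale of log2(normalized count + 1), its Flt1 was 6.705, from 1 read, against 8.192 in the nearest vehicle rat. Its Kdr was 8.281, from 3 reads, against 6.657 in the nearest. Its Tek was also 8.281, from 3 reads, against 7.514. In the other, ENZ rat G2_125 had a Vwf of 8.182, below the nearest ENZ rat at 8.863.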

How the results depend on the processing

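No gene had an adjusted p under 0.05 in any of the 28 fits, including DESeq2 (309 genes at an unadjusted p under 0.05) and edgeR (338). The number at an unadjusted p under 0.05 by limma was 324 and ran from 287 to 458 with 1 rat left out. It was 38 with all 17 rats, 625 with no filter, 201 under the stricter filter (a median of 50 or more) and 497 with 3 principal components as covariates. The median log2 difference over all genes was -0.0043 in the 16 rats and 0.16 with all 17. Vwf stayed higher in ENZ in every fit, from 0.16 without G2_152 to 0.32 without G2_125. Leaving out 1 rat at a time, Vegfa ran from -0.01 to 0.10, Flt1 from -0.12 to 0.10, Kdr from -0.09 to 0.20 and Tek from -0.03 to 0.14. The sign turned without G2_152 for Vegfa (-0.0071), Kdr (-0.0909) and Tek (-0.0301), without G2_161 for Kdr (-0.0640), and without G1_134 (0.0070) or G2_125 (0.0963) for Flt1. With all 17 rats it turned for Flt1 (0.1391), Kdr (-0.1844) and Tek (-0.0447), and for Flt1 also with edgeR (0.0058) and with 3 components (0.0388); beyond the rats that each set contains, the cause was not tested. Kdr did not pass the stricter filter. Of the 10 pairs, 9 passed, 7 to 9 with 1 rat left out (7 without G2_152), and 10 in the 13 rats. It was 4 with all 17 rats and 0 without both G2_125 and G2_152. With 3 components removed it was 5, by a test that did not allow for their removal. With all 17 rats r turned to -0.2410 for Flt1 with Tek and to -0.3175 for Flt1 with Kdr. Of the 2 genes most like Vegfa, 0 stayed among the nearest 2 in the 13 rats or with 3 components, and 1 with group means removed. No paired analysis was possible because the groups share no replicate numbers.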
